A study of Arabidopsis thaliana with 8 samples.

Results

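COR15A, COR15B, COR47 and LTI30 are cold response genes of Arabidopsis thaliana, and each was measured by 1 probe set on every array of a series that compared wild-type rosettes with rosettes of plants disrupted in WRKY genes. The 4 genes were chosen by their symbols in the platform annotation, which pairs 13513 probe sets with 1 symbol each, belonging to 13356 genes. Total RNA was hybridised to 8 Affymetrix ATH1 arrays. Of these, 2 held RNA of Col-0, the wild-type reference accession, told apart by an L or an S of unstated meaning in the title, and 6 held RNA of T-DNA insertion lines in WRKY genes (named KO-02, KO-07, KO-30, KO-40, KO-54 and KO-56), with 1 array per line. The labels do not name the disrupted gene of any line, the genetic background of the lines or how many plants were pooled, and the loss of a WRKY transcript was not checked here. All plants were 35 days old and starting to bolt, and the whole rosette was sampled, leaving out stems and flowers. They shared a chamber regime of 22 °C by day and 19 °C by night at 70% humidity, 14 hours of light and 8 of dark as labelled, and a soil treated with the insecticide imidacloprid and a slow-release fertiliser. No sample is labelled as cold-treated, so the values describe these genes in warm-grown rosettes.

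When Arabidopsis meets low temperature, transcription factors of the CBF family are induced and activate a set of effector genes, of which the COR (cold-regulated) and LTI (low temperature-induced) genes are classic members. The effector genes are also known to respond to drought and abscisic acid, and several are gated by the circadian clock. Their products are mostly hydrophilic proteins that protect membranes and enzymes against freezing and water loss. WRKY proteins are plant transcription factors known mainly from defence and leaf senescence, the subject of the series.

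Arrays were scaled alike, with a mean signal of 100.01 on each after removal of the lowest and highest 2% of probe sets, and array medians from 35.98 to 39.15. For actin, the control probe sets at the 3' and 5' ends had a signal ratio (larger where transcripts have lost their start) that was highest in KO-54 (29.5), followed by KO-30 (15.4), with values from 8.41 (KO-40) to 12.0 (KO-07) on the other 6 arrays. The leaf markers RCA (Rubisco activase) and LHCB4.1 (a light-harvesting protein) had Col-0 means of 3556 and 4349, and the root hair expansins EXPA7 and EXPA18 had 9.32 and 12.5, below the filter on dim probe sets. No flower or seed marker of the lists used had a named probe set. The labels give no batch. Nor do they state separate cultures for the arrays of a group. The p-values therefore cover the spread among these arrays alone, which may be technical. Most of that spread is between different insertion lines, so it may also hold differences between the lines. In rosette RNA, fewer cells of a type and less RNA per cell cannot be told apart.

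All 4 genes gave bright signals on every array. Of the 22746 probe sets, 0.734% were on average brighter than COR15A, 0.813% brighter than COR47, 1.19% brighter than COR15B and 3.05% brighter than LTI30, and all 4 genes passed the filter that kept 15922 probe sets for testing. These ranks describe probe brightness and do not order the transcripts by abundance.

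COR15A (AT2G42540) and COR15B (AT2G42530) encode small hydrophilic proteins that are imported into the chloroplast stroma, where COR15A is known to stabilise membranes during freezing. They are neighbouring genes on chromosome 2 in the gene table used here. COR15A had signals of 1898 (Col-0-L) and 1989 (Col-0-S) in the wild type. Its signal was 1964 in KO-02, 1640 in KO-07, 2358 in KO-30, 1417 in KO-40, 2057 in KO-54 and 2025 in KO-56. The Col-0 pair lay close together inside the range of the lines, with 2 lines below both Col-0 arrays, 3 above both and 1 between them. COR15B had wild-type signals of 1566 (Col-0-L) and 1326 (Col-0-S), and 1493 in KO-02, 1281 in KO-07, 1738 in KO-30, 1215 in KO-40, 1684 in KO-54 and 1454 in KO-56. Like its neighbour it was lowest in KO-40, next lowest in KO-07 and highest in KO-30. Because the 2 genes are close relatives, signal shared between their probe sets was not tested.

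COR47 (AT1G20440, also called RD17) and LTI30 (AT3G50970, also called XERO2) encode dehydrins, the group of late embryogenesis abundant (LEA) proteins that bind membranes and water when cells dry or freeze. COR47 had signals of 1982 (Col-0-L) and 1771 (Col-0-S) in the wild type. Its signal was 1963 in KO-02, 1865 in KO-07, 1940 in KO-30, 1486 in KO-40, 1970 in KO-54 and 1801 in KO-56. Apart from KO-40, the lines all lay between the Col-0 arrays. LTI30 had wild-type signals of 867 (Col-0-L) and 780.4 (Col-0-S), and 797 in KO-02, 792 in KO-07, 965 in KO-30, 653 in KO-40, 827 in KO-54 and 978 in KO-56. KO-40 was again the lowest array, while KO-30 and KO-56 lay above both Col-0 arrays.

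**Figure D1:**
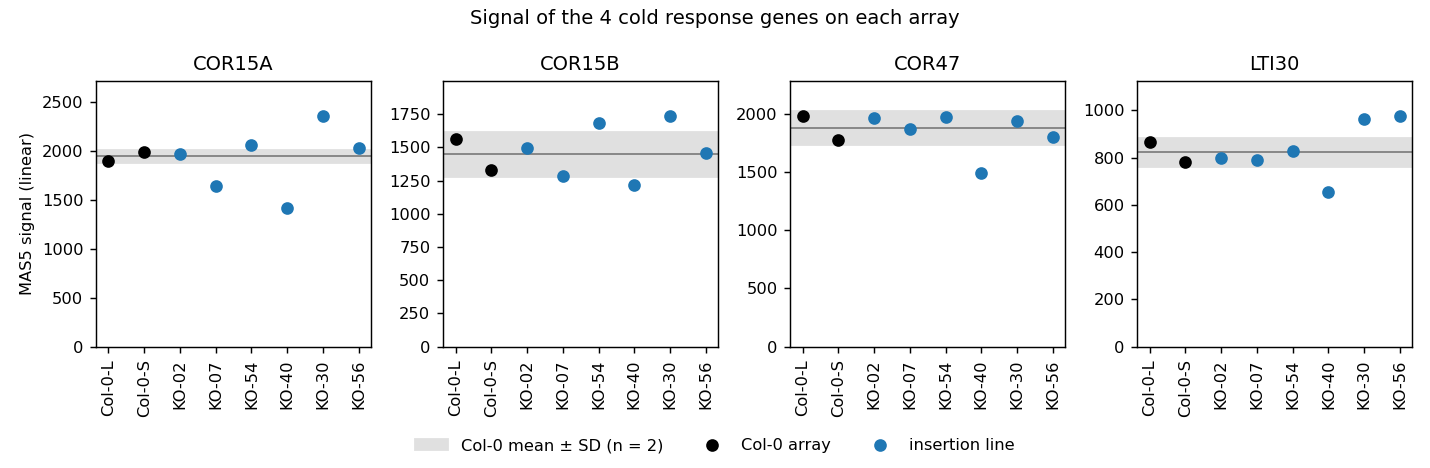
MAS5 signal (linear, y axis) of each gene on each array (x axis), with Col-0 arrays in black, insertion lines in blue and the Col-0 mean ± SD (n = 2) as a grey band. KO-40 is the lowest array for all 4 genes, at 1417, 1215, 1486 and 653.

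The range over the 8 arrays was narrow. The highest array exceeded the lowest by 1.66-fold for COR15A, 1.497-fold for LTI30, 1.43-fold for COR15B and 1.33-fold for COR47. On the log2(signal + 5) scale used for all tests, which understates changes of dim genes, the SD over the 8 arrays was 0.22 for COR15A, 0.19 for COR15B, 0.18 for LTI30 and 0.14 for COR47, against a median of 0.18 over all probe sets tested. Bright probe sets, here the 690 others at least as bright on average as LTI30, had a median SD of 0.13. COR15A had a larger SD than 93.2% of them, COR15B than 84.2%, LTI30 than 83.9% and COR47 than 54.8%. With the arrays of each gene put in order of level, the gap between neighbours was smaller than the standard error of a difference between 2 single arrays for 7 of 7 neighbours in COR15A, COR15B and LTI30. The exception was the step from KO-40 to Col-0-S in COR47, of 0.25 against a standard error of 0.24. This standard error was taken from the spread among the insertion lines, which are themselves among the arrays put in order. Gaps between ordered neighbours are small by construction, so these counts cannot show whether the arrays differ.

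Whether the insertion lines had a change in these genes in common was asked by setting all 6 against Col-0. None of the 4 genes passed the test, and the differences were close to 0. COR15A averaged 1944 ± 64.2 (SD, n = 2) in Col-0. The 6 lines averaged 1910 ± 333 (SD, n = 6), which is a log2 difference of -0.04 ± 0.18 (SE). For COR15B the means were 1446 ± 169 (Col-0) and 1477 ± 209 (lines), with a log2 difference of 0.02 ± 0.16. COR47 had 1876 ± 149.5 and 1838 ± 184 (log2 difference -0.03 ± 0.13), and LTI30 had 824 ± 61.0 and 835 ± 121 (0.01 ± 0.16). The groups overlapped for each gene. The 95% intervals of the log2 difference ran from -0.44 to 0.35 for COR15A, -0.32 to 0.37 for COR15B, -0.33 to 0.26 for COR47 and -0.34 to 0.36 for LTI30. A shared change of 2-fold in either direction thus lay outside each interval.

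limma gave adjusted p of 0.995 for COR15A, 0.996 for COR15B, 0.995 for COR47 and 0.998 for LTI30. It called 0 of the 4 genes and 0% of the 15922 probe sets at an adjusted p under 0.05. At an unadjusted p under 0.05 it had 0 of the 4 genes and 3.72% of all probe sets. Groups that did not overlap were seen for 0 of the 4 genes and 6.24% of all probe sets. The median log2 difference was -0.01 over the 4 genes, -0.01 over all probe sets and -0.08 over the bright ones. The sign of each difference depended on single arrays: it turned to 0.04 for COR15A and 0.03 for COR47 without KO-40, and to 0.05 for COR47 without Col-0-L. For COR15B it turned to -0.02 without KO-54, -0.03 without KO-30 and -0.10 without Col-0-S, and for LTI30 to -0.03 without KO-30, -0.04 without KO-56 and -0.07 without Col-0-S.

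The Col-0 arrays differed from each other by as much as many lines differed from their mean. Col-0-L minus Col-0-S gave log2 differences of 0.24 ± 0.27 (SE) for COR15B and 0.16 ± 0.24 for COR47. For LTI30 and COR15A they were 0.15 ± 0.28 and -0.07 ± 0.32. Each side is a single array, so the SE and the calls rest on the spread among the insertion lines. They do not measure variation between wild-type samples. limma called none of the 4 genes and 0% of all probe sets here, and at an unadjusted p under 0.05 it had 0 of the 4 genes and 3.27% of all probe sets.

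The lines were also taken one by one against Col-0. The spread came from the remaining 5 lines and both Col-0 arrays, so a lone array was assumed to vary like them, and every line shares the same 2 Col-0 arrays. No gene passed limma in any of the 6 lines, where the share of probe sets called was 0% in KO-02, KO-07 and KO-40, 0.0691% in KO-54, and 0.00628% in KO-30 and in KO-56. At an unadjusted p under 0.05 none of the 4 genes stood out in any line, against 2.29% of all probe sets in KO-02, 1.65% in KO-07, 8.48% in KO-30, 6.68% in KO-40, 10.5% in KO-54 and 5.5% in KO-56.

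KO-40 had the lowest signal of the 8 arrays for 4 of 4 genes. Its signal was 72.9% of the Col-0 mean for COR15A, 79.2% for COR47, 79.3% for LTI30 and 84.0% for COR15B. The log2 differences from Col-0 were -0.45 ± 0.21 (SE) for COR15A, -0.33 ± 0.16 for COR47, -0.33 ± 0.20 for LTI30 and -0.25 ± 0.22 for COR15B, with limma's adjusted p of 0.761, 0.784, 0.871 and 0.934 in that order. Without Col-0-L the value for COR15B was -0.13. The signs held after quantile normalization, median centring and centring on bright probe sets.

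Bright probe sets as a whole were lower on the KO-40 array. Over the 690 other bright probe sets the median log2 difference of KO-40 from Col-0 was -0.18, with 83.3% of them lower, while over all 15922 probe sets it was -0.01. KO-40 lay below both Col-0 arrays for 4 of the 4 genes, for 37% of all probe sets and for 72.6% of the bright ones. It was the lowest of the 8 arrays for 12.8% of all probe sets and 42.5% of the bright ones. With each array centred on the bright probe sets, a setting chosen after seeing the data, the differences were -0.31 ± 0.21 (SE) for COR15A, -0.19 ± 0.16 for COR47, -0.19 ± 0.19 for LTI30 and -0.10 ± 0.21 for COR15B. The leaf markers RCA and LHCB4.1 had log2 differences in KO-40 of -0.38 ± 0.19 and -0.33 ± 0.17. The part of this array-wide shift in the values of the 4 genes was not tested beyond these measurements.

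**Figure D2:**
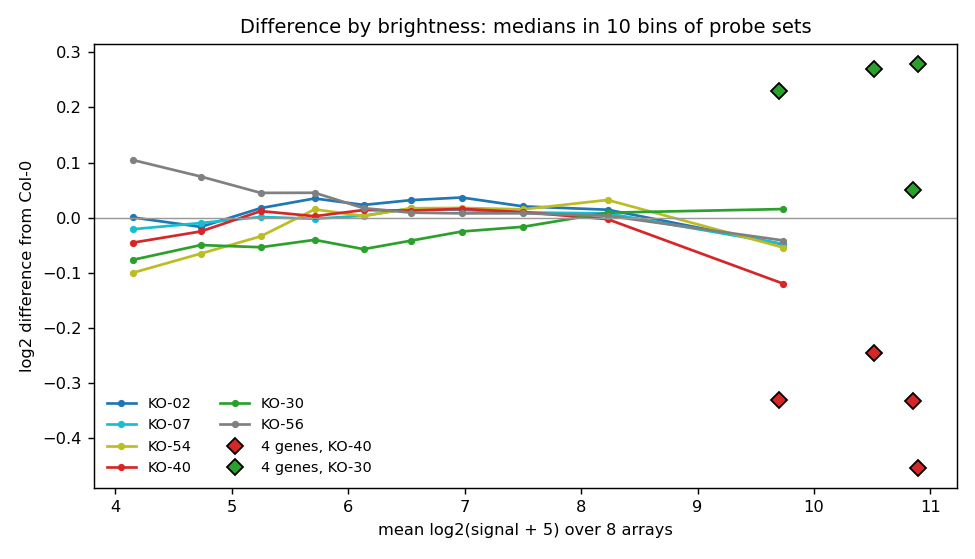
Median log2 difference of each line from Col-0 (y axis) in 10 equal bins of the tested probe sets ordered by mean log2(signal + 5) over 8 arrays (x axis), with the 4 genes as diamonds for KO-40 and KO-30. In the brightest bin the median is -0.12 in KO-40 and 0.02 in KO-30.

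Set against the other 5 lines, KO-40 had log2 differences of -0.49 ± 0.19 (SE) for COR15A, -0.41 ± 0.18 for LTI30, -0.36 ± 0.15 for COR47 and -0.32 ± 0.19 for COR15B. The differences do not use the Col-0 arrays, while their SE and p draw on the spread of that pair too. The bright probe sets had a median of -0.12 in this contrast. limma called 0 of the 4 genes and 0% of all probe sets (adjusted p = 0.999 for each gene). At an unadjusted p under 0.05 it had 3 of the 4 genes (not COR15B), against 3.93% of all probe sets. This line was singled out after its values were seen, and the share of bright probe sets under this threshold was not counted. Of the bright ones, 80.6% were lower in this contrast. With arrays centred on them, the differences were -0.39 ± 0.19 (SE) for COR15A, -0.31 ± 0.17 for LTI30, -0.26 ± 0.15 for COR47 and -0.22 ± 0.19 for COR15B.

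KO-30 was the opposite end for both COR15 genes. Its signal was 121% of the Col-0 mean for COR15A, 120.2% for COR15B, 117% for LTI30 and 103% for COR47. The log2 differences from Col-0 were 0.28 ± 0.23 (SE) for COR15A, 0.27 ± 0.21 for COR15B, 0.23 ± 0.22 for LTI30 and 0.05 ± 0.19 for COR47, with limma's adjusted p between 0.785 and 0.973. It lay above both Col-0 arrays for 3 of the 4 genes, for 31.7% of all probe sets and for 38% of the bright ones. The median over the bright probe sets was 0.01. Without Col-0-S the value for COR15B was 0.15 and the sign for COR47 turned, to -0.03; without Col-0-L the value for COR47 was 0.13. Against the other 5 lines the differences were 0.39 ± 0.21 for COR15A, 0.29 ± 0.19 for COR15B, 0.26 ± 0.20 for LTI30 and 0.10 ± 0.17 for COR47, beside a bright median of 0.11, and none passed limma (adjusted p from 0.448 to 0.839; 0.00628% of all probe sets called). At an unadjusted p under 0.05 there were 0 of the 4 genes and 14.2% of all probe sets in that contrast. Against the other 5 lines, 27.5% of the bright probe sets were lower in KO-30. With arrays centred on the bright probe sets, KO-30 minus the other lines was 0.29 ± 0.20 (SE) for COR15A and 0.20 ± 0.18 for COR15B. For LTI30 and COR47 it was 0.17 ± 0.18 and 0.007 ± 0.16. The actin end ratio of KO-30 was 15.4, and its part in these values was not tested.

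In KO-07 the COR15 pair was lower, at -0.24 ± 0.27 (SE) for COR15A and -0.17 ± 0.24 for COR15B (-0.05 without Col-0-L and -0.29 without Col-0-S), while the dehydrin genes COR47 and LTI30 were at -0.01 and -0.05. In KO-54, the array with the actin ratio of 29.5, COR15B was at 0.22 ± 0.23 (0.34 without Col-0-L and 0.10 without Col-0-S) and the others between 0.01 (LTI30) and 0.08 (COR15A). In KO-56 LTI30 stood alone at 0.25 ± 0.22, with the other genes between -0.06 (COR47) and 0.06 (COR15A). In KO-02 all 4 genes lay between -0.04 (LTI30) and 0.07 (COR47). limma's adjusted p was at least 0.739 for each of these genes and lines.

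**Figure D3:**
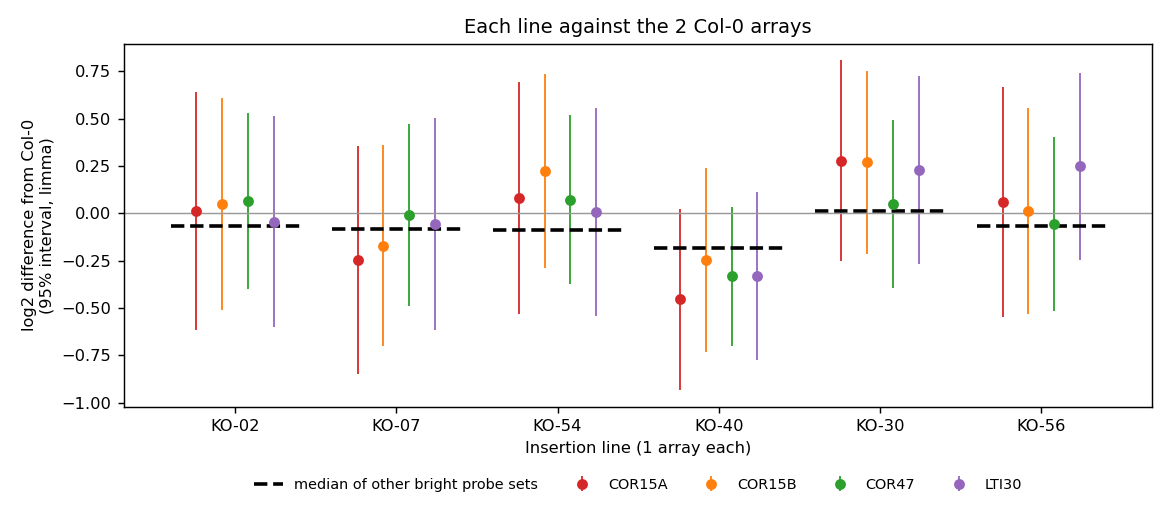
Log2 difference of each line (x axis) from the 2 Col-0 arrays for each gene, with 95% intervals from limma, and the median of 690 other bright probe sets as dashed lines. All 24 intervals include 0, and KO-40 is the line with the lowest value for each gene.

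After adjustment, 3 of the 6 pairs of genes passed a permutation test of Pearson's r across the arrays. Pairs of other bright probe sets were not put to this test, so no share of passing pairs can be set beside that count. The test asks whether the genes of a pair are unrelated, while pairs of bright probe sets had a median r of 0.25. Over the 8 arrays Pearson's r between pairs ran from 0.66 for COR47 with LTI30 to 0.85 for COR15A with COR15B. For the COR15 pair an exact permutation test gave p = 0.00446 (adjusted p = 0.0268 over 6 pairs), and Spearman's rho was 0.79 (p = 0.0279; adjusted p = 0.11). Exact permutation tests of Pearson's r also passed after adjustment for COR15B with COR47 (r = 0.77, p = 0.0096, adjusted p = 0.0288; rho = 0.76, p = 0.0368, adjusted p = 0.11) and for COR15A with LTI30 (r = 0.83, p = 0.016, adjusted p = 0.032; rho = 0.67, p = 0.0831, adjusted p = 0.125). They did not pass for COR15A with COR47 (r = 0.73, p = 0.0462, adjusted p = 0.0554; rho = 0.29, p = 0.501, adjusted p = 0.501), COR15B with LTI30 (r = 0.72, p = 0.0417, adjusted p = 0.0554; rho = 0.71, p = 0.0576, adjusted p = 0.115) or COR47 with LTI30 (r = 0.66, p = 0.0832, adjusted p = 0.0832; rho = 0.50, p = 0.216, adjusted p = 0.259). No pair passed by Spearman's rho after adjustment.

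These relations rest unevenly on the outer arrays. Without the 2 arrays farthest from the median of the gene named first, of which KO-40 was always one, r was 0.73 for COR15B with COR47, 0.60 for COR15A with COR15B and 0.56 for COR15A with LTI30. It was 0.30 for COR15B with LTI30, 0.07 for COR15A with COR47 and -0.40 for COR47 with LTI30, so the last 3 relations rest on those arrays. For comparison, the median r over all pairs of the 690 bright probe sets was 0.25, and 16.6% of those pairs exceeded 0.66. With arrays centred on the bright probe sets r was 0.78 for the COR15 pair and between 0.46 and 0.76 for the other 5 pairs. The permutation test was not repeated on the centred values.

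The mean of the 4 centred log2 profiles was -0.33 in KO-40, -0.11 in KO-07, -0.05 in Col-0-S, 0.03 in KO-02, 0.07 in Col-0-L and in KO-56, 0.11 in KO-54 and 0.22 in KO-30. Among 8746 other probe sets with 1 gene symbol, the 6 most like this profile over the 8 arrays were AT4G16146 (r = 0.97), AT1G30260 (0.95), AT1G42960 (0.95), AT1G19835 (0.93), AT1G11020 (0.93) and NRPD7 (0.93), the last a subunit of a plant-specific RNA polymerase. AT4G16146 had signals of 533 (Col-0-L) and 480.0 (Col-0-S) in the wild type, and 499 in KO-02, 468 in KO-07, 561 in KO-30, 409 in KO-40, 562 in KO-54 and 509.5 in KO-56, again lowest in KO-40. NRPD7 was dim, with signals from 12.3 in KO-40 to 20.3 in KO-30. The least alike were AT4G38940 (r = -0.94), AT4G24350 (-0.93) and AT1G48210 (-0.92). AT4G24350 had 194 in KO-40 and between 52.9 (KO-30) and 97.5 (KO-07) on the other arrays. All of these r share the same 8 arrays and their scaling, and they were picked as the extremes of many. Of the 8746, 19 had r above 0.9 and 7 below -0.9, and the median was -0.01 over all and 0.44 over the bright probe sets.

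Other genes of the cold pathway were looked for in lists of cold regulators, cold effectors, abscisic acid genes and circadian clock genes. Of their 112 entries, 4 matched a probe set with 1 symbol. Of the 22746 probe sets, 13513 have 1 symbol in the annotation. The unmatched entries were not examined, so these values do not cover the pathway. When the lines were compared with Col-0, 0 of the 4 matched genes passed limma. STZ, a zinc finger repressor induced by cold and other stresses, averaged 504 ± 64.1 in Col-0 (SD, n = 2) and 692 ± 175 over the lines (SD, n = 6; log2 difference 0.42 ± 0.23 SE). It was highest in KO-40, at 952, where the COR and LTI genes were lowest. The next highest arrays for STZ were KO-54 at 791 and KO-07 at 767. The COR15 genes lay above both Col-0 arrays in KO-54 and below both in KO-07, and a relation to STZ was not tested. TIL, a lipocalin linked to temperature tolerance, had a log2 difference of -0.05 ± 0.12. EIN3, the ethylene regulator known to repress CBF genes, had -0.05 ± 0.12, and GI, a clock gene with a part in freezing tolerance, had 0.06 ± 0.16. The limma adjusted p of these genes was between 0.989 and 0.993.

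A further 12 genes were taken after seeing the data, from names in the gene table that mention cold regulation, dehydrins, LEA proteins or drought. With the 4 above they made 16, of which 13 passed the filter on dim probe sets and none passed limma when lines and Col-0 were compared. There, 5 of the 13 had higher and 8 lower mean log2 values in the lines (median -0.05). The median was -0.01 over all tested probe sets and -0.08 over the bright ones, of which 75.9% were lower. COR27, a cold-regulated gene tied to the clock, had means of 212 ± 46.1 (Col-0) and 254 ± 36.1 (lines; log2 difference 0.26 ± 0.16 SE). AT1G54410, the small dehydrin HIRD11, had 3684 ± 541 and 3425 ± 252 (-0.10 ± 0.13), and was lowest in KO-40 at 2948. SRC2, named for a soybean gene regulated by cold, had 0.07 ± 0.13. The LEA genes AtLEA4-1, LEA and LEA18 had signals of at most 11.3 on every array and were not tested. LEA4-5, also dim, had means of 17.6 ± 10.2 (Col-0) and 13.3 ± 4.54 (lines).

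In KO-40, 9 of the 13 had lower and 4 higher values than Col-0 (median -0.12). The median was -0.01 over all tested probe sets and -0.18 over the 690 bright ones, of which 83.3% were lower. The part of that array-wide shift in the values of the 13 was not tested. Among the 13, HVA22C, of a family induced by abscisic acid in barley, was at -0.31 ± 0.17 (SE). The bright AT1G54410 was at -0.31 ± 0.18. The lowest was the dim LEA4-5, at -0.99 ± 0.35, and the highest STZ, at 0.92 ± 0.30. None of the 13 passed limma there (smallest adjusted p = 0.609).

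**Figure D4:**
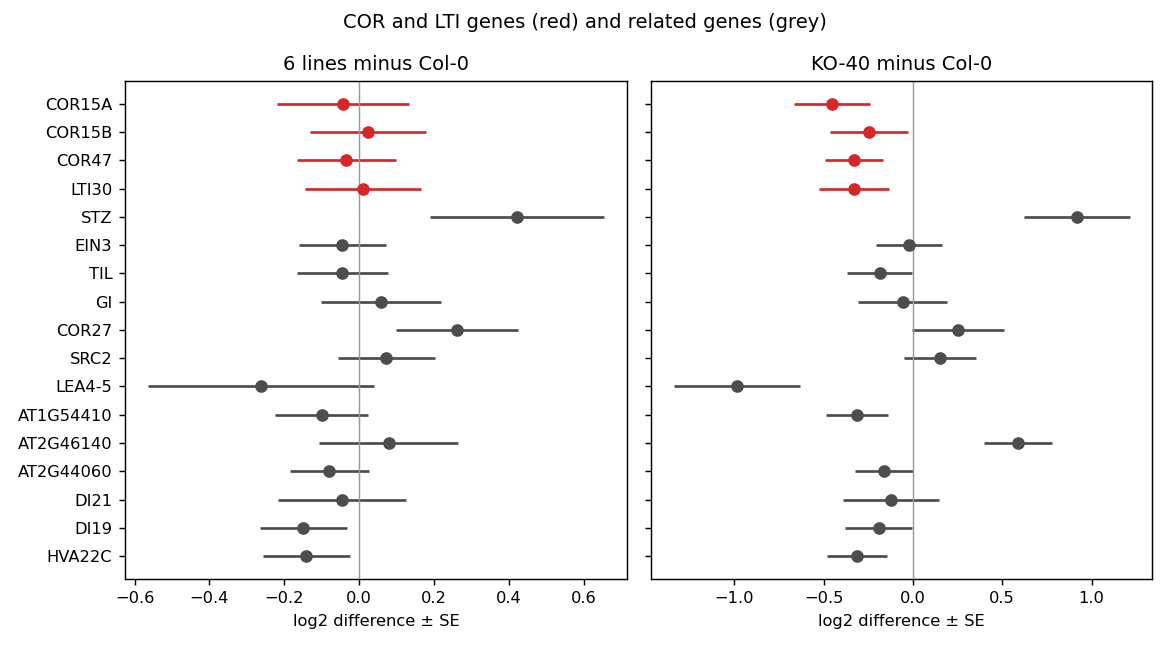
Log2 difference ± SE (x axis) of the 4 COR and LTI genes (red) and of 13 related genes past the filter (grey), for the 6 lines minus Col-0 (left) and KO-40 minus Col-0 (right). The red points lie between -0.04 and 0.02 on the left and between -0.45 and -0.25 on the right.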

How the data were processed

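The authors deposited MAS5 probe set intensity values on a linear scale, per the submitters' processing notes; the version and scaling settings of MAS5 are not given in the sources used here. Arrays were matched to samples by column name (0 columns lacked a sample) and grouped by source name. Control probe sets (64) were removed, which left 22746. To each signal 5 was added, the 20th percentile of the signals as a whole number, and log2 was taken. Probe sets with a mean log2 value above the 30th percentile were tested (15922). The platform annotation pairs 13513 probe sets with 1 symbol and 503 with several; 13436 of the former were found in a TAIR10.1 gene table, used for names and neighbours only.

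limma 3.58.1 in R 4.3.3 was used for all tests across probe sets (lmFit, eBayes, two-sided, Benjamini-Hochberg over all those tested, threshold 0.05) and was checked on simulated data. The lines were compared with Col-0 in a model of 2 levels (6 residual degrees of freedom), and single lines in a model of 3 levels: that line, the remaining 5 and Col-0 (5 residual degrees of freedom). The Col-0 arrays were compared with each other in another model of 3 levels: Col-0-L, Col-0-S and the insertion lines. Its spread came from the lines alone. Correlations between genes used exact two-sided permutation tests over all orders of 8 arrays. All members were named; the genes most and least like them were the 6 highest and 3 lowest r. The members and lists were chosen with earlier results of these data known. Alternatives covered the pseudocount (1 or 21), the filter, the normalization, the variance model, array weights and left-out arrays. The number of arrays limits the precision.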

Additional observations from a re-analysis of the deposited data

Results flagged for a closer look

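COR47 in KO-40, with a signal of 1486, stood apart from the other 5 lines. Its gap to the next line was 0.65 of the whole range of the 6 lines, above the critical value of 0.625 for 6 samples. The lines of the other 3 genes showed no such gap. Chance flags about 1 in 20 groups, and 4 groups were examined. How many other probe sets had such a gap was not counted. Bright probe sets as a whole were lower on the KO-40 array. It was the lowest of the 8 arrays for 42.5% of them, against 12.8% of all probe sets. The part of this array-wide shift in the gap of COR47 was not tested.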

How the results depend on the processing

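None of the 4 genes was called by limma in any comparison under any alternative (668 recomputed differences, smallest adjusted p = 0.275, for COR15A in KO-30 against the other lines), and 634 kept their sign. Not all of these differences could change. The filter, the variance model, array weights and a left-out other line did not alter a single line's difference from Col-0. KO-40 was below Col-0 under each alternative, from -0.49 to -0.31 for COR15A, -0.37 to -0.10 for COR15B, -0.41 to -0.19 for COR47 and -0.41 to -0.19 for LTI30. KO-30 was above the other 5 lines in each, though by 0.00073 only for COR47 after quantile normalization. The differences of the 6 lines from Col-0 changed sign. With quantile normalization they were 0.021 for COR15A and 0.029 for COR47, and with centring on bright probe sets 0.016 and 0.025. With array weights they were -0.052 for COR15B and -0.042 for LTI30, and without KO-54 and KO-30 together -0.088 and -0.045. Leaving out 1 array at a time gave -0.11 to 0.038 for COR15A, -0.096 to 0.14 for COR15B, -0.12 to 0.047 for COR47 and -0.066 to 0.085 for LTI30.

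Small differences of single lines from Col-0 also changed sign. After quantile normalization they were 0.0062 for LTI30 in KO-02 and 0.049 for COR47 in KO-07, with median centring -0.0084 for COR15A in KO-02 and -0.029 for COR15B in KO-56, and with centring on bright probe sets 0.046 for COR47 in KO-07 and 0.00011 in KO-56. Leaving out 1 array at a time gave, in KO-02, -0.018 to 0.049 for COR15A, -0.069 to 0.17 for COR15B, -0.014 to 0.15 for COR47 and -0.12 to 0.031 for LTI30. In KO-07 it gave -0.088 to 0.075 for COR47 and -0.13 to 0.021 for LTI30, in KO-54 -0.0085 to 0.15 for COR47 and -0.066 to 0.084 for LTI30, in KO-30 -0.031 to 0.13 for COR47, and in KO-56 -0.11 to 0.13 for COR15B and -0.14 to 0.024 for COR47. With arrays left out, the sign changes came without Col-0-L or Col-0-S. They could come from no other array, because a single line's difference from Col-0 uses only that line and the Col-0 arrays. Why the Col-0 arrays differed was not tested. No paired analysis was possible because every title carries the same replicate number and each line has 1 array. All 4 genes were among the bright probe sets, and the number of arrays limits the precision.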

Other observations

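Of the related genes, 2 with names that point to cold or desiccation were picked here after their values were seen. On single arrays they went against the COR and LTI genes or beyond them. Others did so too, such as STZ (log2 difference from Col-0 of 0.92) and the dim LEA4-5 (-0.99) in KO-40. AT2G46140, named LEA27 in the gene table, had a signal of 74.1 in KO-40 and between 38.4 (KO-30) and 50.9 (KO-02) on the other 7 arrays, a log2 difference of KO-40 from Col-0 of 0.59 ± 0.19 (SE; limma adjusted p = 0.609). COR27 had 321 in KO-30 and between 179.6 (Col-0-L) and 265 (KO-54) on the other 7 arrays, a log2 difference of KO-30 from Col-0 of 0.60 ± 0.20 (SE; limma adjusted p = 0.487).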
